A study of Mus musculus with 12 samples.

Results

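The genes described here encode the muscle nicotinic acetylcholine receptor and the proteins that gather it at the neuromuscular junction, the synapse between motor nerve and muscle fibre. They were the 10 genes Chrna1, Chrnb1, Chrnd, Chrne, Chrng, Musk, Lrp4, Dok7, Rapsn and Colq, chosen by name and matched exactly to the gene symbols, out of 21936 genes listed in the files. All 10 were found. The compared libraries came from PTRF knockout mice, labelled as having muscular dystrophy, and from wild-type (WT) mice, labelled normal, all of strain C57BL/6N and aged 3 months. PTRF is the caveolar coat protein cavin 1, encoded by Cavin1. How the knockout allele was made, and in which cells it acts, is not given in the sources used here. The labels list 12 samples of polyadenylated RNA, 3 per genotype in soleus and 3 per genotype in quadriceps. Soleus and quadriceps samples that share a genotype and a replicate number held equal values, with 0 genes differing, so the comparison rests on 6 libraries, 3 knockout and 3 wild type. The labels place the same values under both muscles, so they do not give the muscle of origin of these libraries. Origin was not tested from the expression values, and no contrast between muscles was made.

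The muscle receptor is a pentamer that opens a cation channel when acetylcholine binds. Before birth, and again after denervation, it contains the gamma subunit (Chrng), whereas the adult receptor carries the epsilon subunit (Chrne) in its place; alpha 1 (Chrna1), beta 1 (Chrnb1) and delta (Chrnd) belong to both forms. Agrin from the nerve binds LRP4, which activates the receptor kinase MuSK; DOK7 sustains that kinase, and rapsyn (Rapsn) anchors the receptors. COLQ is the collagen tail that holds acetylcholinesterase in the synaptic cleft.

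The values were read as TPM, the scaled share of a gene among all transcripts once read numbers are corrected for transcript length. Their unit is not named by any label or header, and the number of reads behind them is unknown. Totals were 848224 to 872482 TPM in knockout libraries and 843194 to 849159 TPM in wild-type libraries. Transcripts of the mitochondrial genome took 39.0 to 45.7% of the total in knockout libraries and 43.0 to 52.3% in wild-type libraries. Cavin1 was at 0.284, 0.0905 and 0.0254 TPM in knockout libraries 1, 2 and 3, against 45.2, 40.0 and 42.2 TPM in wild-type libraries 1, 2 and 3. Skeletal muscle genes were abundant in all 6 libraries, with Acta1, the skeletal alpha-actin gene, at 13965 to 18146 TPM in knockout libraries and 10740 to 12716 TPM in wild-type libraries. In bulk muscle a change in the number of cells or fibres of a kind and a change in RNA per cell cannot be told apart. Nothing in the labels ties the numbered samples to different animals, so the p-values rest on a spread between samples that may be only technical.

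The promoters below are shown for Chrnb1 and Chrna1, the subunit genes that rose in the knockout, and for Chrne and Chrng, the adult and fetal alternatives. Each run gives 250 bases before and 50 bases after the RefSeq start of the gene on its own strand (GRCm38.p6). Capitals mark E-boxes, CANNTG, the letters that myogenic factors such as MyoD and myogenin bind, and the N-box letters CCGGAA, searched on both strands, which ETS factors bind.
Chrnb1 (chr11:69795888-69796187, minus strand): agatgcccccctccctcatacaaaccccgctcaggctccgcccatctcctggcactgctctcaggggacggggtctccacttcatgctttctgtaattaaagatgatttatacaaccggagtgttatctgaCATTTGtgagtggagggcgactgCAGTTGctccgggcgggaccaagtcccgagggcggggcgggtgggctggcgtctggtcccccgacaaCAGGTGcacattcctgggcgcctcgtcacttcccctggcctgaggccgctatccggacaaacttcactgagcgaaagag
Chrna1 (chr2:73580289-73580588, minus strand): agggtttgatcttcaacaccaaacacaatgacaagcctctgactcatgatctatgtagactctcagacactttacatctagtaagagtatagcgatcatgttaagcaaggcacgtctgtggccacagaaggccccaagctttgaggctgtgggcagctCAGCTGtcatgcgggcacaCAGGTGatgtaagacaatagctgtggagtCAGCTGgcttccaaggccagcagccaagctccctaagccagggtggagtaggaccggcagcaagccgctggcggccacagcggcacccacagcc
Chrne (chr11:70619145-70619444, minus strand): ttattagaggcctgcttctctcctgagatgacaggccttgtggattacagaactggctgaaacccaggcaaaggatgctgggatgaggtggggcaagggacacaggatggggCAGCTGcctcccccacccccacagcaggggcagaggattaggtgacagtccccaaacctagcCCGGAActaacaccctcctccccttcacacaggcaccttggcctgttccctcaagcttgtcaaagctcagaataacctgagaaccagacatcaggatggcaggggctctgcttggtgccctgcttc
Chrng (chr1:87205561-87205860, plus strand): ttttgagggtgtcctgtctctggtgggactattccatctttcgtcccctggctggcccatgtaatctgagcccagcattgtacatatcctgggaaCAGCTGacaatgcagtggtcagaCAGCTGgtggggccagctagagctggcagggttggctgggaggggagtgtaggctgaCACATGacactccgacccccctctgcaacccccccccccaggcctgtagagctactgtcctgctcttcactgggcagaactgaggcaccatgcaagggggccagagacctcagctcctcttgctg
The Chrna1, Chrnb1 and Chrng windows each held 3 E-boxes, a number reached or passed by 17.6% of the 32851 promoter windows in the table. The Chrne window held 1 E-box, which 72.3% of windows have at least, and the N-box letters beginning 76 bases before the start, which 14.9% of windows contain. The E-box form CAGCTG, counted within CANNTG, occurred 2 times in each of the Chrna1 and Chrng windows, which 1.9% of windows reach or pass, 1 time in the Chrne window and 0 times in the Chrnb1 window. A match is a description of letters and not evidence of binding. Windows were found for 6 of the 10 genes.

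The first comparison asked how the subunit genes of the receptor differed between knockout and wild type. Chrnb1 (ENSMUSG00000041189, chromosome 11 from 69784036 to 69795943 on the minus strand, GRCm38) encodes the beta 1 subunit. It stood at 40.4, 22.0 and 28.6 TPM in knockout libraries 1, 2 and 3, against 11.9, 10.2 and 13.0 TPM in wild-type libraries 1, 2 and 3. The groups did not overlap: the lowest knockout value was well above the highest wild-type value, and knockout library 1 was the highest of all. The mean was 30.4 ± 9.34 TPM in the knockout and 11.7 ± 1.39 TPM in wild type (SD, n = 3 each), a ratio of 2.59. In log2(TPM + 1), a scale on which the changes of weakly expressed genes come out too small, Chrnb1 rose by 1.27 (standard error 0.20, adjusted p = 0.00066 in limma, a linear model fitted to all genes with variances shared across genes).

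Chrna1 (ENSMUSG00000027107, chromosome 2 from 73563215 to 73580338, minus strand) encodes the alpha 1 subunit, which carries most of the acetylcholine binding site. Its level was 12.3, 12.5 and 11.9 TPM in the knockout libraries, against 6.41, 6.48 and 8.26 TPM in the wild-type libraries. The knockout values lay close together and above every wild-type value. The means were 12.2 ± 0.339 TPM in the knockout and 7.05 ± 1.05 TPM in wild type (SD, n = 3 each), a ratio of 1.73, and the log2 fold change was 0.72 (standard error 0.14, limma adjusted p = 0.0027).

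Neither the delta nor the adult epsilon subunit passed the test on the deposited scale. Chrnd (ENSMUSG00000026251, chromosome 1 from 87190607 to 87200070, plus strand) was at 1.88, 1.87 and 2.40 TPM in knockout libraries and at 1.88, 1.37 and 1.79 TPM in wild-type libraries. Chrne (ENSMUSG00000014609, chromosome 11 from 70614883 to 70619216, minus strand) was at 4.29, 4.63 and 4.12 TPM in knockout libraries and at 4.44, 4.77 and 4.94 TPM in wild-type libraries. The ranges of both genes overlapped between the groups. Their log2 fold changes were 0.19 for Chrnd (limma adjusted p = 0.29) and -0.10 for Chrne (limma adjusted p = 0.56). The gene 4930544D05Rik overlaps Chrne on the opposite strand, and it was listed at 0.949 to 1.45 TPM in knockout libraries and 1.04 to 1.41 TPM in wild-type libraries; whether the counting used strand is not given in the sources used here.

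Chrng (ENSMUSG00000026253, chromosome 1 from 87204657 to 87212694, plus strand), the fetal gamma subunit, lies next to Chrnd, with 4586 bases between them. It was listed at 0.0902, 0.260 and 0.351 TPM in the knockout libraries, against 0.0447, 0.0152 and 0.0483 TPM in the wild-type libraries. Every knockout value lay above every wild-type value, but all 6 were below the minimum of 1 TPM used for testing, and the means of 0.234 ± 0.133 TPM in the knockout and 0.0361 ± 0.0182 TPM in wild type (SD, n = 3 each) stood far below those of the other 4 subunits. With no minimum level, the log2 fold change of Chrng was 0.25 (standard error 0.08) and did not pass (limma adjusted p = 0.062); 19.8% of the 18254 genes in that fit passed as higher and 1.58% as lower. With a pseudocount of 0.1 in place of 1 and no filter it was 1.21 and passed (limma adjusted p = 0.039). That fit was chosen after the data were seen, and 3735 of its 18254 genes passed as higher and 296 as lower. With no filter, a pseudocount of 1 and trimmed-mean rescaling, Chrng did not pass (log2 fold change 0.21, limma adjusted p = 0.11). On the deposited scale the call therefore depended on the pseudocount.

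**Figure D1:**
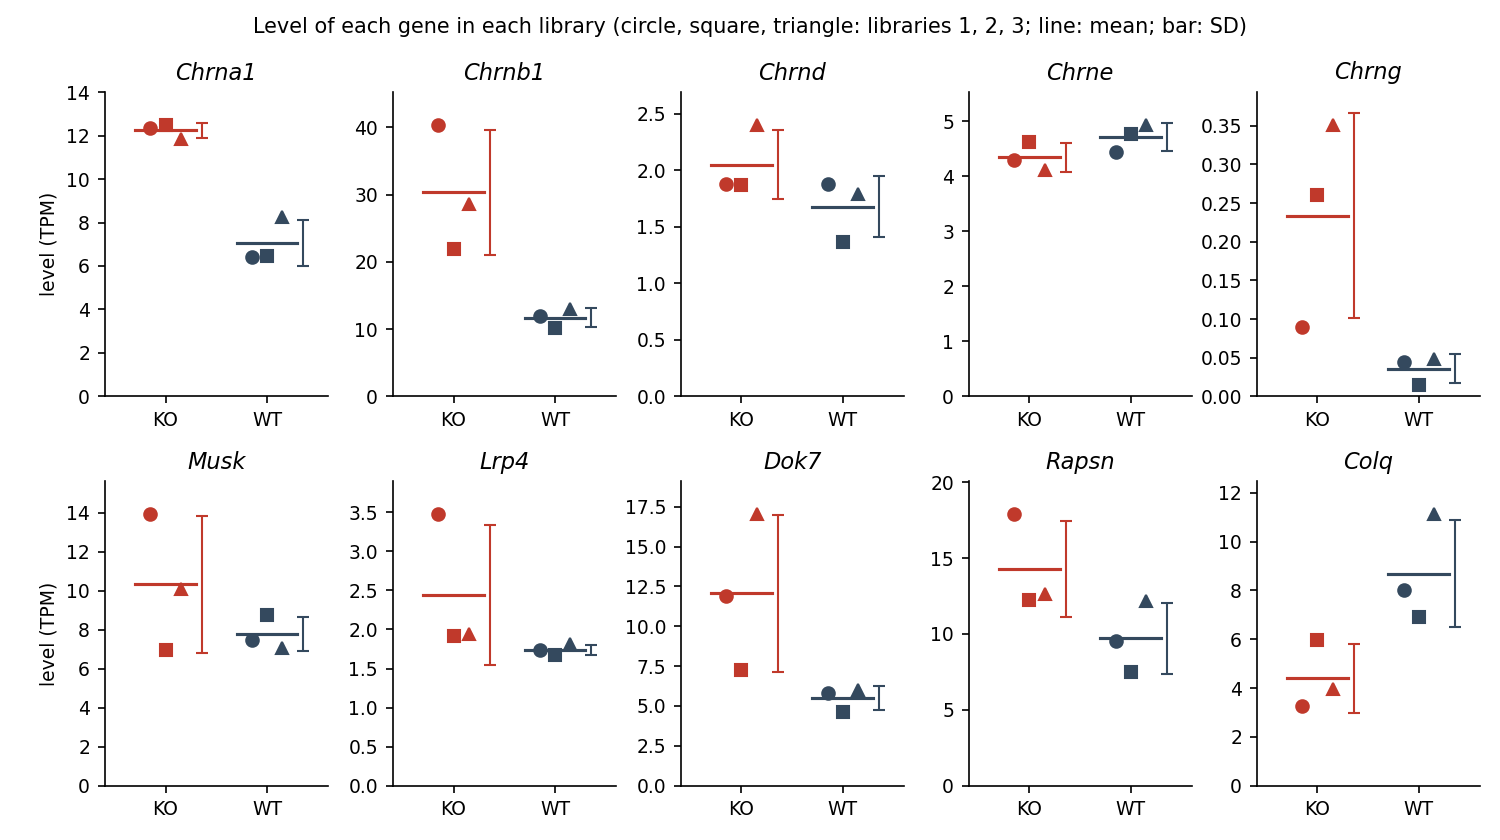
Level of each of the 10 genes in TPM (vertical axes, each starting at 0) in the 3 knockout (KO, red) and 3 wild-type (WT, dark) libraries. Points are libraries, lines are means and bars are SD. On this deposited scale Chrna1, Chrnb1, Chrng, Lrp4, Dok7 and Rapsn lie higher in every knockout library, as 48.7% of all tested genes do. For Lrp4, Dok7 and Rapsn this ends after trimmed-mean rescaling. Colq lies lower in every knockout library, and Chrng stays under 1 TPM in all 6.

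The clustering genes were compared next. Dok7 (ENSMUSG00000044716, chromosome 5 from 35056766 to 35087839, plus strand), the cytoplasmic activator of MuSK, was at 11.9, 7.24 and 17.1 TPM in knockout libraries, against 5.78, 4.62 and 6.02 TPM in wild-type libraries. The groups did not overlap, and the knockout libraries spread more widely than the wild-type ones. The means were 12.1 ± 4.91 TPM in the knockout and 5.48 ± 0.750 TPM in wild type (SD, n = 3 each). Dok7 rose by 0.95 on the log2 scale (standard error 0.24, limma adjusted p = 0.0100). It no longer passed after trimmed-mean rescaling (adjusted p = 0.098), after quantile normalization (adjusted p = 0.12), without the filter on low values (adjusted p = 0.058), or without knockout library 1 and wild-type library 2 together (adjusted p = 0.073), all by limma.

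Musk, Lrp4 and Rapsn did not pass. The kinase gene Musk (ENSMUSG00000057280, chromosome 4 from 58285960 to 58374303, plus strand) was at 13.9, 6.95 and 10.1 TPM in knockout libraries and at 7.48, 8.76 and 7.08 TPM in wild-type libraries. Knockout library 2 was the lowest of the 6. The agrin receptor gene Lrp4 (ENSMUSG00000027253, chromosome 2 from 91457511 to 91513779, plus strand) was at 3.48, 1.91 and 1.94 TPM in knockout libraries and at 1.74, 1.67 and 1.81 TPM in wild-type libraries. Its groups did not overlap, yet only knockout library 1 stood clearly apart. Rapsn (ENSMUSG00000002104, chromosome 2 from 91035620 to 91045729, plus strand) was at 17.9, 12.3 and 12.6 TPM in knockout libraries and at 9.52, 7.49 and 12.2 TPM in wild-type libraries. Its lowest knockout value barely exceeded its highest wild-type value. The log2 fold changes were 0.33 for Musk (limma adjusted p = 0.22), 0.30 for Lrp4 (limma adjusted p = 0.18) and 0.51 for Rapsn (limma adjusted p = 0.055). Without knockout library 2, Musk (log2 fold change 0.56, adjusted p = 0.024) and Rapsn (0.61, adjusted p = 0.032) passed in limma, which raised the number of genes passing as higher from 3 to 5, where 38.8% of all genes passed as higher and 3.27% as lower. Rapsn also passed without wild-type library 3 (adjusted p = 0.028) and with a filter of 10 TPM (adjusted p = 0.033) in limma.

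Colq (ENSMUSG00000057606, chromosome 14 from 31523082 to 31591343, minus strand) was the only one of the 10 genes that passed as lower on the deposited scale. It was at 3.26, 5.98 and 3.96 TPM in the knockout libraries, against 8.02, 6.90 and 11.1 TPM in the wild-type libraries. All knockout values were below all wild-type values, the closest being knockout library 2 and wild-type library 2. The knockout mean of 4.40 ± 1.41 TPM compared with 8.69 ± 2.20 TPM in wild type (SD, n = 3 each), or 50.7% of it. The log2 fold change was -0.85 (standard error 0.21, limma adjusted p = 0.0086). Ache, the gene for the acetylcholinesterase that COLQ anchors, moved the other way: it was at 6.93, 7.01 and 6.59 TPM in knockout libraries, against 4.46, 3.05 and 6.04 TPM in wild-type libraries, and rose by 0.54 on the log2 scale (limma adjusted p = 0.039). After trimmed-mean rescaling Ache no longer passed (log2 fold change 0.20, limma adjusted p = 0.40).

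Tested genes had to reach 1 TPM in 3 or more libraries, and 9 of the 10 did. Of these 9, 3 were thus higher in the knockout and 1 lower. The background is the whole set of 11056 tested genes: 36.3% were higher and 2.92% lower. The share of junction genes that were higher was near that background, so the count says nothing particular about them. Their median log2 fold change was 0.33, and that of all tested genes was also 0.33. Groups did not overlap for 5 of the 9 in the higher direction and for 1 in the lower, where 48.7% and 4.83% of all tested genes behaved so. The split between higher and lower calls moved with the scale of the libraries: 92.6% of all calls were higher on the deposited scale, 77.6% on a scale over nuclear genes alone, 48.9% after trimmed-mean rescaling and 49.2% after quantile normalization.

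Trimmed-mean rescaling, which divides each library by a factor that centres most genes, brought the median of all log2 fold changes to -0.02 and shifted every gene of the set. On that scale Chrnb1 rose by 0.88 (standard error 0.16, limma adjusted p = 0.0042) and Chrna1 by 0.35 (standard error 0.10, limma adjusted p = 0.032). Colq fell by 1.19 (standard error 0.21, limma adjusted p = 0.0043). Chrne, which had not passed before, fell by 0.43 (standard error 0.11, limma adjusted p = 0.021), and its rescaled values were 3.44, 4.29 and 3.61 TPM in knockout libraries, against 5.29, 5.87 and 5.17 TPM in wild-type libraries. The counts were then 2 higher and 2 lower of 9, where 13.8% and 14.4% of all 10988 tested genes were higher and lower; these 4 genes also had groups that did not overlap, as 20.2% of all genes did in the higher direction and 23.7% in the lower. Quantile normalization likewise gave 2 higher and 2 lower, against 12.7% and 13.1% of all genes. Musk (-0.05), Chrnd (-0.08), Lrp4 (0.02) and Rapsn (0.14) lay near the median of all genes after trimmed-mean rescaling, without passing.

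**Figure D2:**
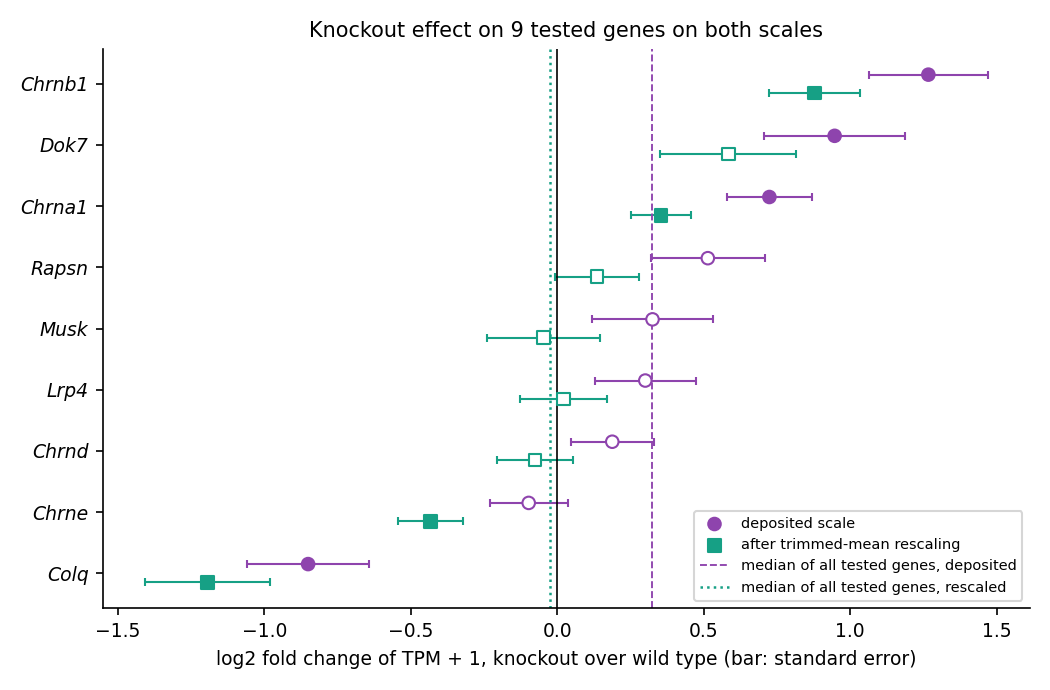
Log2 fold change of TPM + 1, knockout over wild type (horizontal axis), of the 9 tested genes on the deposited scale (circles) and after trimmed-mean rescaling (squares). Bars are standard errors, filled symbols have a limma adjusted p under 0.05, and broken lines mark the median of all tested genes. Chrnb1 (1.27 and 0.88) lies at the top and Colq (-0.85 and -1.19) at the bottom on both scales.

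Shares within a library do not depend on its scale, but the summed level they are taken from does. The 5 subunit genes summed to 59.0, 41.2 and 47.4 TPM in knockout libraries, against 24.7, 22.8 and 28.0 TPM in wild-type libraries. Chrnb1 took 68.5, 53.3 and 60.5% of that sum in knockout libraries and 48.3, 44.7 and 46.3% in wild-type libraries. Chrne took 7.27, 11.2 and 8.69% in knockout libraries and 18.0, 20.9 and 17.6% in wild-type libraries. The shares of both genes did not overlap between the groups (exact permutation test, two-sided, p = 0.1 for each, the smallest that 3 against 3 allows, and 0.15 when adjusted over the 15 within-library tests). The share of Chrnd was also lower in every knockout library, at 4.26 ± 0.976% in the knockout and 6.65 ± 0.837% in wild type (SD, n = 3 each; exact permutation p = 0.1). Chrna1 held 25.4 ± 4.71% of the sum in the knockout and 27.9 ± 1.81% in wild type (SD, n = 3 each), with overlapping groups (exact permutation p = 0.5). Chrnb1 is part of this sum, so its level weighs on the shares of the others. With Chrnb1 left out of the sum, Chrne took 23.1, 24.0 and 22.0% in knockout libraries and 34.8, 37.8 and 32.8% in wild-type libraries, again without overlap. Chrnd then took 10.9 ± 1.71% in the knockout and 12.5 ± 1.99% in wild type (SD, n = 3 each), with overlapping groups. Chrna1 took 64.9 ± 1.53% in the knockout and 52.2 ± 2.49% in wild type (SD, n = 3 each), without overlap. The share of the adult epsilon subunit was thus lower in every knockout library with or without Chrnb1 in the sum, while the lower share of Chrnd depended on Chrnb1 being in the sum. Chrna1, which also rose, is the largest part of the sum without Chrnb1, so its level weighs on that share of Chrne. The level of Chrne itself did not pass on the deposited scale.

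**Figure D3:**
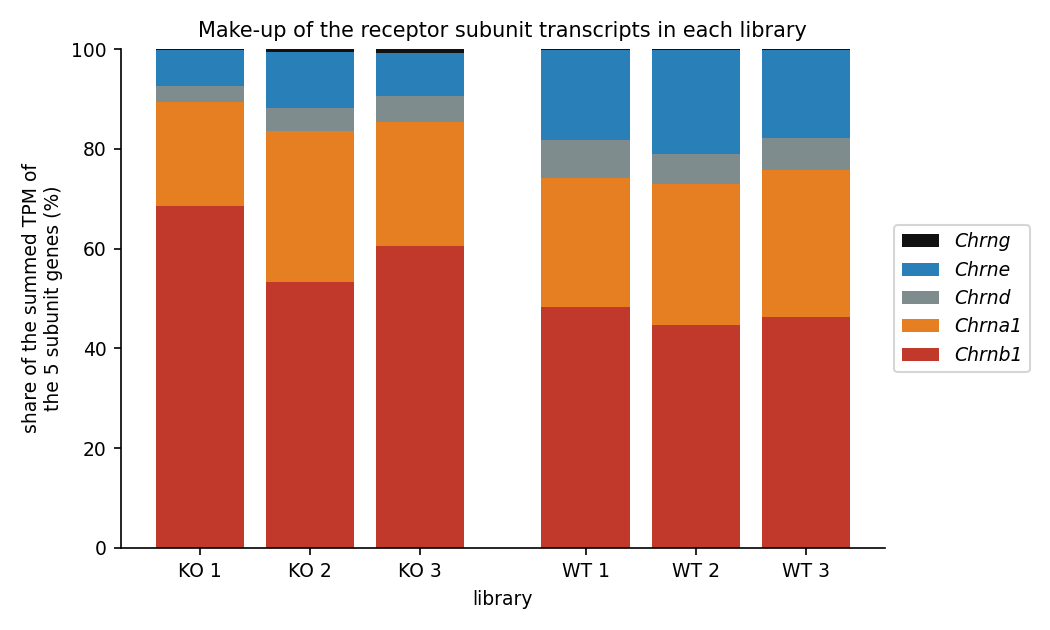
Share of each subunit gene in the summed TPM of the 5 receptor subunit genes (vertical axis, percent) in each knockout (KO) and wild-type (WT) library. Chrnb1 (red) takes 53.3 to 68.5% in knockout libraries and 44.7 to 48.3% in wild-type libraries, and Chrne (blue) takes 7.27 to 11.2% in knockout libraries and 17.6 to 20.9% in wild-type libraries.

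The fetal subunit was set against the adult one in the same way. Chrng made up 2.06, 5.32 and 7.87% of the sum of Chrng and Chrne in knockout libraries, against 0.997, 0.317 and 0.968% in wild-type libraries. The groups did not overlap, and Chrne remained the more abundant in all 6 libraries. The mean share was 5.08 ± 2.91% in the knockout and 0.761 ± 0.384% in wild type (SD, n = 3 each; exact permutation test, two-sided, p = 0.1, adjusted 0.15). At these low Chrng levels the unknown number of reads limits the precision of the share.

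Ratios to Chrnb1, with 0.1 TPM added to both genes, were lower in every knockout library than in every wild-type library for Colq, Chrne, Chrnd, Musk, Lrp4 and Rapsn. The log2 difference was -2.31 for Colq, -1.45 for Chrne, -1.05 for Chrnd, -0.98 for Musk, -0.91 for Lrp4 and -0.77 for Rapsn (exact permutation p = 0.1 and adjusted 0.15 for each). Chrnb1 itself rose by 1.27 on the deposited scale, which weighs on every ratio. The levels of Chrnd (0.19), Musk (0.33), Lrp4 (0.30) and Rapsn (0.51) had positive log2 fold changes on that scale, without passing. Only Colq passed as lower there. The ratios of Chrna1 (-0.53, exact permutation p = 0.2) and Dok7 (-0.28, exact permutation p = 0.4) overlapped between the groups. The ratio of Chrng turned from -0.11 to 0.48 without knockout library 1, and the added 0.1 TPM weighs heavily on a gene of that level.

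The order of the levels also differed. In knockout libraries the means ran from Chrnb1 through Rapsn, Chrna1, Dok7, Musk, Colq, Chrne, Lrp4 and Chrnd to Chrng. Chrnb1 and Rapsn did not overlap there, nor did Musk and Colq, Chrne and Lrp4, or Chrnd and Chrng. In wild-type libraries the order was Chrnb1, Rapsn, Colq, Musk, Chrna1, Dok7, Chrne, Lrp4, Chrnd and Chrng, and the ranges of neighbours overlapped from Chrnb1 down to Chrna1. By its mean, Colq thus stood above Musk, Chrna1 and Dok7 in wild type and below them in the knockout. In wild-type library 2, however, Colq (6.90 TPM) lay below Musk (8.76 TPM).

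Among libraries of one genotype the genes did not all vary together. On the deposited scale knockout library 2 was the lowest of the knockout libraries for Chrnb1, Chrnd, Musk, Lrp4, Dok7 and Rapsn and the highest for Chrna1, Chrne and Colq. Knockout library 1 was the highest for Chrnb1, Musk, Lrp4 and Rapsn and the lowest for Colq and Chrng. After trimmed-mean rescaling knockout library 2 was the lowest for Chrnb1, Musk and Dok7.

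Genes that act around these members were counted from lists of known partners. The background was 36.3% higher and 2.92% lower on the deposited scale, and 13.8% higher and 14.4% lower after trimmed-mean rescaling. No background was counted for an unadjusted p under 0.05, in any list. Every gene with an adjusted p under 0.05 also meets that rule, so its share of all genes is at least as large. Of 13 tested partners of the agrin and MuSK pathway, 6 were higher and none was lower, also at an unadjusted p under 0.05 in limma. Agrn, the gene for agrin, was at 11.2, 10.3 and 10.4 TPM in knockout libraries, against 3.09, 2.82 and 3.11 TPM in wild-type libraries. The groups were far apart and each was narrow, and Agrn rose by 1.54 on the log2 scale (standard error 0.13, limma adjusted p = 1.1e-05), and by 1.19 after trimmed-mean rescaling (limma adjusted p = 0.00015). Macf1, a cytoskeletal linker, rose by 0.80, the kinase gene Abl2 by 0.52 and the kinase gene Cdk5 by 0.63 on the log2 scale. After trimmed-mean rescaling Agrn and Macf1 were still higher, Abl2 and Cdk5 did not pass, and Dnaja3, for a cochaperone that binds MuSK, was the 1 of 13 that was lower (log2 fold change -0.57).

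Of 13 tested genes of the synaptic scaffold and synaptic basal lamina, 8 were higher and none was lower, with a median log2 fold change of 0.66. After trimmed-mean rescaling 4 were higher and none was lower. At an unadjusted p under 0.05 in limma, on the deposited scale, 11 were higher and 0 lower. No share of all genes was counted for that rule. Utrn, for utrophin, the synaptic relative of dystrophin, was at 15.4, 13.1 and 13.6 TPM in knockout libraries, against 5.52, 5.30 and 6.89 TPM in wild-type libraries. Utrn rose by 1.13 on the log2 scale (limma adjusted p = 0.00018). The syntrophin genes Sntb2 and Sntb1, whose proteins bind utrophin and dystrophin, rose by 0.83 and 0.66, and the laminin gene Lama4 by 0.87. Sntb1 and Sntb2 stayed below 1 TPM in all wild-type libraries, so they met the minimum through the knockout libraries alone.

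Of 14 tested regulators of receptor gene transcription, 9 were higher and 1 was lower (4 and 2 after trimmed-mean rescaling, where 2 of 14 is near the background share). Myod1, a myogenic factor that binds E-boxes such as those marked above, was at 13.3, 8.36 and 11.6 TPM in knockout libraries, against 2.04, 1.32 and 1.41 TPM in wild-type libraries. Its log2 fold change was 2.21 (limma adjusted p = 8.5e-06). Myog, for myogenin, was at 7.11, 3.94 and 9.44 TPM in knockout libraries, against 1.71, 1.16 and 1.42 TPM in wild-type libraries, and rose by 1.63 (limma adjusted p = 0.00031). On the deposited scale both had their lowest knockout value in library 2, as 6 of the 10 junction genes did. After trimmed-mean rescaling 3 of the junction genes did. The share of all genes that were lowest in that library was not counted. Chrna1, Chrne and Colq had their highest knockout value in knockout library 2. A link between Myod1 or Myog and the junction genes was not tested. Runx1, a transcription factor induced by denervation, rose by 1.07 and, like Vcam1 below, stayed below 1 TPM in all wild-type libraries. Dach2, a transcriptional corepressor of Myog that is itself lowered by denervation, fell by 1.35 (limma adjusted p = 2.7e-05). Gabpa, for a subunit of an ETS factor that binds N-boxes, averaged 10.8 ± 0.273 TPM in the knockout and 11.2 ± 0.603 TPM in wild type (SD, n = 3 each) and did not pass (limma adjusted p = 0.81). After trimmed-mean rescaling Gabpa fell by 0.42 (limma adjusted p = 0.014). Gabpa was singled out after its values were seen.

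None of the 8 tested genes for receptor assembly and glycosylation passed in limma on either scale (median log2 fold change 0.36); at an unadjusted p under 0.05, 3 were higher on the deposited scale and 2 lower after trimmed-mean rescaling. The most abundant, the chaperone gene Canx, was at 69.1 ± 17.4 TPM in the knockout and 50.8 ± 9.99 TPM in wild type (SD, n = 3 each). Of the 11 other nicotinic subunit genes, 2 reached the minimum. Chrna2, a mainly neuronal alpha subunit gene, was at 0.661, 0.507 and 1.01 TPM in knockout libraries, against 2.21, 1.54 and 2.82 TPM in wild-type libraries. It fell by 0.88 on the log2 scale (limma adjusted p = 0.0025) and by 1.10 after trimmed-mean rescaling (limma adjusted p = 0.0017), but it met the minimum mainly through the wild-type libraries, where it is high. Chrna10 did not pass, and Chrna6 and Chrna7 were listed at 0 in all 6 libraries.

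**Figure D4:**
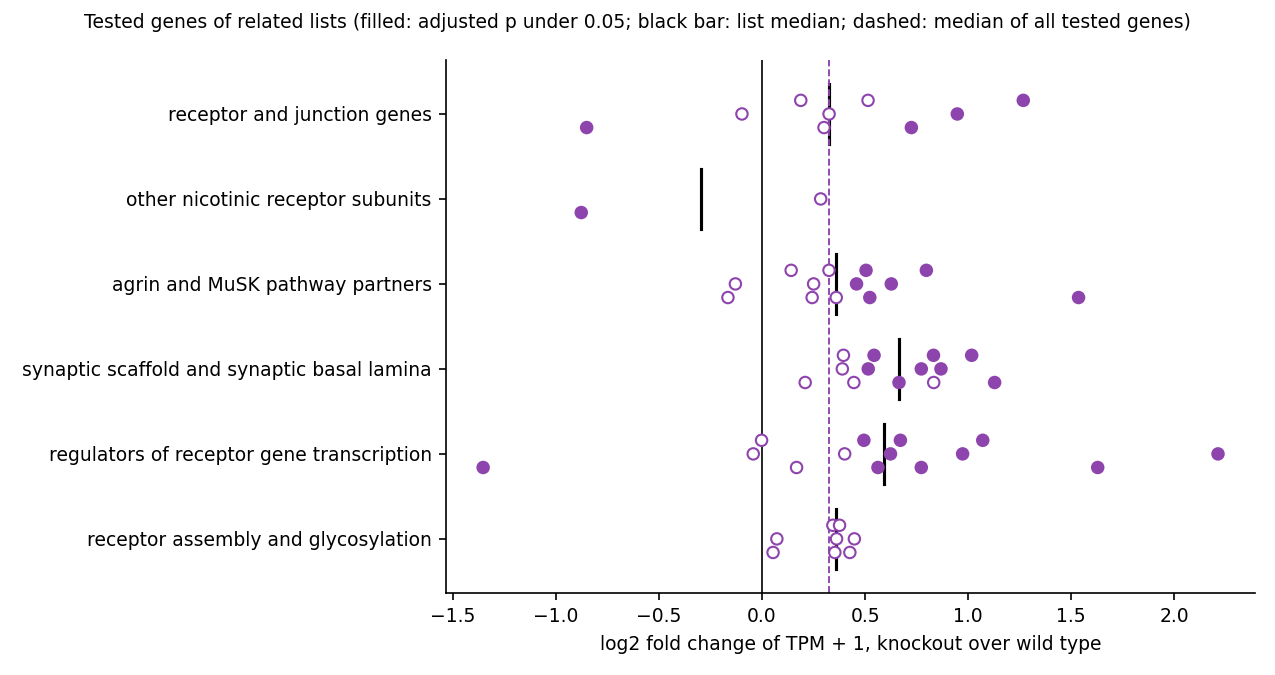
Log2 fold change of TPM + 1, knockout over wild type (horizontal axis), of the tested genes of the receptor and junction set and of 5 related lists. Filled points have a limma adjusted p under 0.05, black bars are list medians and the dashed line is the median of all tested genes (0.33). The lowest point is Dach2 and the highest Myod1, both regulators of receptor gene transcription.

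Only some markers of other cells and fibre states differed with genotype, and their part in these results was not tested. On the deposited scale no tested Schwann cell or slow fibre marker passed. For the marker counts below, the background on that scale was 36.3% of all tested genes passing as higher and 2.92% as lower. After trimmed-mean rescaling the background was 13.8% and 14.4%. All 7 macrophage markers were higher, and their summed level was 72.5 to 97.4 TPM in knockout libraries and 11.1 to 13.7 TPM in wild-type libraries; Ctss (log2 fold change 2.48), Tyrobp (2.24), C1qa (2.61) and Cd68 (2.45) had the smallest adjusted p-values. The other macrophage markers Adgre1 and Ptprc met the minimum through the knockout libraries alone. Of 4 tested markers of regenerating or immature fibres, 3 were higher (Tnnt2 by 1.21, Myl4 by 0.81 and the embryonic myosin gene Myh3 by 1.35 on the log2 scale) and Actc1 fell by 0.89; Myl4 did not pass after trimmed-mean rescaling (limma adjusted p = 0.081). The summed level of all 7 such markers was 49.1 to 61.9 TPM in knockout libraries and 26.7 to 50.7 TPM in wild-type libraries. Among satellite cell markers Vcam1 rose by 2.32, Chodl rose by 0.42 (not passing after trimmed-mean rescaling, limma adjusted p = 0.68) and Sdc4 fell by 0.54, while Pax7, the defining one, was at 0.552 to 0.562 TPM in knockout libraries and 0.293 to 0.544 TPM in wild-type libraries, below the minimum for testing.

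None of the 4 tested Schwann cell markers passed in limma (1 higher at an unadjusted p under 0.05), and the summed level of the 10 was 48.6 to 59.3 TPM in knockout libraries and 43.1 to 51.1 TPM in wild-type libraries; Pmp22, the most abundant, was at 33.0 ± 4.85 TPM in the knockout and 24.6 ± 3.37 TPM in wild type (SD, n = 3 each). Of the motor axon list, Chat, Slc18a3 and Nefl were listed at 0 in all 6 libraries, and Uchl1 rose by 0.85 on the log2 scale but did not pass after trimmed-mean rescaling (limma adjusted p = 0.13). Of the 8 genes in that list the summed level was 20.9 to 29.6 TPM in knockout libraries and 9.86 to 18.2 TPM in wild-type libraries. Nearly all of it was Uchl1 and Stmn2, and Stmn2 did not pass (limma adjusted p = 0.11). Nefm, Nefh and Snap25 stayed under 0.1 TPM in every library. The sum therefore describes mainly Uchl1 and not the list as a whole. Of 6 fast fibre markers 1 was higher, Myh4, the type 2B myosin gene, at 238, 580.1 and 346 TPM in knockout libraries, against 6.43, 193.5 and 4.21 TPM in wild-type libraries, where library 2 stood apart. The 6 slow fibre markers, among which Myl3 was the most abundant, did not pass in limma on the deposited scale (1 lower at an unadjusted p under 0.05), and 3 were lower after trimmed-mean rescaling. Of the skeletal muscle genes Des, for desmin, was the 1 of 7 that was higher (log2 fold change 0.97), and after trimmed-mean rescaling Mb, for myoglobin (-0.60, limma adjusted p = 0.035), and Tnnt1, for slow troponin T (-0.45, limma adjusted p = 0.036), were lower.

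The tested genes whose pattern over the 6 libraries was nearest to that of Chrna1 were Armcx1, Angptl1, Gas7, Cav2 and Snx2. The measure was the root-mean-square distance between log2(TPM + 1) profiles, each centred on its own mean, and it ran from 0.039 for Armcx1 to 0.044 for Snx2. Cav2, for caveolin 2, was at 30.2, 30.8 and 28.5 TPM in knockout libraries, against 16.2, 17.7 and 21.6 TPM in wild-type libraries. With 11056 genes compared over 6 libraries, such near matches describe the profile only.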

How the data were processed

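RNA extraction used TRIzol and library construction a NEBNext Ultra kit, per the labels' protocols. The submitters' processing notes name STAR 2.5.3a and kallisto 0.43.0 as tools and GRCm38 and mm10 as builds; which step each served is not given in the sources used here. The deposited values were taken as TPM, from the values alone. TPM keeps no read depth, so no depth or counting interval is given. It is also a share, so a change in abundant transcripts moves all others.

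Soleus files were used, and the quadriceps files served to check for copies. Genes not listed in a file were set to 0. The fit was made on log2(TPM + 1) in limma 3.58.1 under R 4.3.3, with a variance trend over expression level, 4 residual degrees of freedom, and a Benjamini-Hochberg threshold of 0.05 over every gene reaching 1 TPM in 3 libraries. Trimmed-mean rescaling left out 30% of ratios and 5% of levels at each end. Exact permutation tests used scipy 1.17.1. In simulated data for this comparison (11056 genes, 200 changed), recovery was 77% for the 100 genes shifted by 1 log2 unit and 99% for the 100 shifted by 2, with 6 false calls. The changed genes left out the weakest of the tested genes and were shifted up and down in equal number. No library was given a different scale. Recovery for the weakest genes, or under a shift in scale, was therefore not measured. Positions come from GENCODE M21 (GRCm38) and promoters from RefSeq (GRCm38.p6).

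The members and lists were chosen with earlier results of these data known. Beside the members, the text names Cavin1, up to 4 passing genes of each list by smallest adjusted p, the most abundant gene of a list without a call, and the 5 genes nearest Chrna1. Acta1, Ache, Gabpa, Dnaja3, Adgre1, Ptprc, Mb, Tnnt1, Pax7, Chrna10 and the genes listed at 0 were named outside that rule, after their values were seen. The same holds for Stmn2, Nefm, Nefh and Snap25. Alternatives were limma without the trend, other scales, filters and pseudocounts, the replicate number as a block, and each library left out. The shares of the 5 subunits, with and without Chrnb1 in the sum, the unfiltered fits with a second change, and the omission of knockout library 1 with wild-type library 2 were chosen after seeing the data.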

Additional observations from a re-analysis of the deposited data

How the results depend on the processing

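With each choice changed alone, and without knockout library 1 and wild-type library 2 together, Chrna1, Chrnb1 and Colq kept their direction and a limma adjusted p under 0.05 wherever tested (0.0010 to 0.040, 2.1e-05 to 0.012 and 0.0010 to 0.049); Chrna1 and Colq were lost where a log2 change of 1 was also required, and Colq with the replicate block and no filter together (adjusted p = 0.089). Chrne also passed as lower after quantile normalization (log2 fold change -0.52, limma adjusted p = 0.012). Direction turned, without a call, for Chrnd and Musk after quantile normalization (-0.23 and -0.070) and trimmed-mean rescaling (-0.076 and -0.046) and for Lrp4 after quantile normalization (-0.13); the log2 ratio of Chrng to Chrnb1 turned to 0.48 without knockout library 1 and ran from -0.42 to 0.48 with each library left out. The difference in the Chrna1 share turned to 12.7 percentage points with Chrnb1 left out of the sum. Members passing as higher numbered 3 to 5 with each library left out. Those fits tested 10569 to 11005 genes, and their counts over all genes are given below. Members passing as higher numbered 1 where a log2 change of 1 or more in size was also required. The share of all genes at that fold minimum was not counted. Members passing as lower numbered 1 with each library left out, 2 after quantile normalization and 2 after trimmed-mean rescaling, and 0 with the 10 TPM filter, where Colq was not tested, and 0 at the fold minimum. Over all genes, 4016 were higher and 323 lower; the counts were 1403 and 1449 after quantile normalization, 1516 and 1582 after trimmed-mean rescaling, 2635 and 761 on the nuclear-only scale, 1673 and 213 without knockout library 1 and wild-type library 2 together, and 1616 higher with the 10 TPM filter, where fewer genes were tested. With each library left out they ran from 2379 to 4150 higher and 219 to 346 lower, with the fewest higher (2379) when knockout library 1 was omitted, then 2504 (knockout library 3) and 2535 (wild-type library 2). In the other lists, 38 genes were higher and 4 lower, against 21 and 11 after quantile normalization and 22 and 12 after trimmed-mean rescaling. The difference in the Chrng share ran from 2.93 to 5.83 percentage points with each library left out. Apart from fewer genes or samples tested, the cause of these changes was not tested. Replicate numbers did not pair the libraries (correlations of same-numbered deviations -0.01 to 0.04). With the replicate block 4 members were higher and 1 lower, Rapsn being added (limma adjusted p = 0.037). That fit called 4047 of all 11056 tested genes higher and 326 lower. The unknown depth limits Chrng most.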
